A study of Mus musculus with 4 samples.

Results

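Natural killer (NK) cells of the injured mouse carotid artery were described from single-cell RNA-sequencing libraries of days 3, 7 and 14 after wire injury. A cell was counted as NK-gated when its barcode held at least 500 genes, at least 1000 unique molecular identifiers (UMIs) and at most 10% mitochondrial UMIs, when Ncr1, Klrb1c, Klre1 and Eomes together gave at least 2 UMIs and Nkg7 at least 1, and when no UMI of Cd3d, Cd3e, Cd3g, Csf1r or Cd68 was present. This gate found 191 cells among the 4094 barcodes of these libraries that passed the cell filter, and among 6161 barcodes in the whole series. The levels of the 10 gate genes therefore chose the cells and are given below as a description only. Gate genes apart, the genes described here played no part in the choice.

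All libraries came from carotid arteries of male C57BL/6 mice that were 11 weeks old before injury, and no group carried a genetic change or a drug treatment. The left carotid was injured with a wire that disrupts the inner layers of the vessel, the vessels of several mice made up each pool, thrombosed vessels were discarded, and the pieces were digested with collagenases, hyaluronidase and DNase before removal of dead cells and a droplet-based 3′ protocol. There were 4 libraries, 1 for each of day 0 (before injury), day 3, day 7 and day 14, with 333, 1689, 3001 and 1138 cell barcodes. Each day was thus a single pool of vessels without replicates, so that a difference between days cannot be told apart from a difference between libraries, and all intervals cover counting error only.

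NK cells are cytotoxic lymphocytes of the innate immune system that kill target cells by releasing perforin and granzymes and that secrete interferon-γ and chemokines. They carry no rearranged T cell receptor and are instead controlled by a balance of activating and inhibitory receptors, among them the Ly49 and NKG2 families. Maturation is accompanied by gain of Itgam, Klrg1, S1pr5 and Zeb2, whereas less mature NK cells and the tissue-resident type 1 innate lymphoid cells (ILC1) express genes such as Il7r, Ltb, Cxcr6 and Rora.

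No NK-gated cell was found in the uninjured artery, among 249 filtered cells (exact 95% binomial interval 0 to 1.471%). On day 3, 51 of 1196 cells were NK-gated (4.264%, exact 95% binomial interval 3.191 to 5.569%). On day 7 there were 115 of 2018 (5.699%, 4.727 to 6.801%), and on day 14 there were 25 of 880 (2.841%, 1.847 to 4.165%). The share on day 14 was 0.4985 times that of day 7 (0.3098 to 0.7735), whereas the interval of the ratio of day 7 to day 3 included 1 (1.336, 0.9531 to 1.897). Relative to T cells, defined by at least 2 UMIs of the CD3 genes, NK-gated cells were most frequent on day 3. There were 0.9623 NK-gated cells per T-gated cell on day 3 (51 and 53 cells), 0.4197 on day 7 (115 and 274 cells) and 0.3521 on day 14 (25 and 71 cells), and the ratio on day 7 was 0.4362 times that on day 3 (0.274 to 0.6964). Once every cell was reduced to 1000 UMIs before gating, the shares were 2.843%, 2.577% and 1.591%, so that day 3 and day 7 exchanged places, while the NK-gated cells per T-gated cell kept their order between day 3 and the later days (1.133, 0.3006 and 0.3043).

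**Figure D1:**
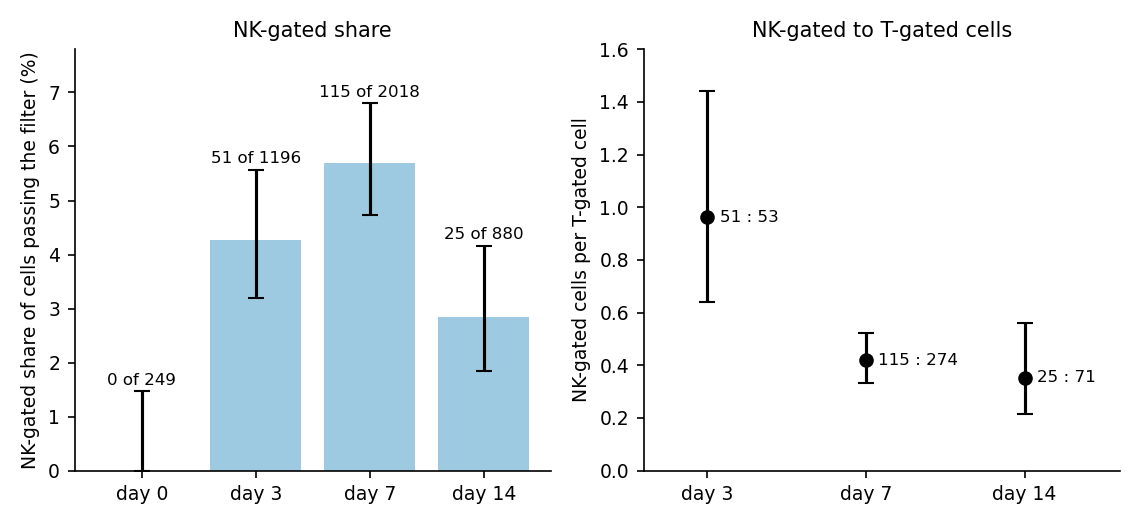
NK-gated cells by day. The left panel shows the NK-gated share of filtered cells in percent, with bars for the share and error bars for the exact 95% binomial interval, and the right panel shows the number of NK-gated cells per T-gated cell with its exact 95% interval. The share was highest on day 7 at 5.699%, whereas NK-gated cells per T-gated cell were highest on day 3 at 0.9623.

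Most cells lay well inside the gate. Of the 191 cells, 174 held more than 5 UMIs of the 4 NK genes, 14 held 3 to 5, and 3 held exactly 2, while 6 cells that met every other condition lay just outside with 1 UMI. Nkg7, a granule protein of cytotoxic cells, was at exactly 1 UMI in 8 cells inside, and 11 cells lay outside for lack of it. A further 10 cells were left out for a single CD3 UMI and 84 for 2 or more, and 10 cells were left out for a single UMI of Csf1r or Cd68 and 4 for more. Ncr1, which encodes the activating receptor NKp46, was seen in 168 of the 191 cells, Klrb1c (NK1.1) in 174, Klre1 in 176 and Eomes, a transcription factor of NK cell development, in 109. Barcodes were shared between days 0 and 3 in 152 cases, days 7 and 14 in 64 and days 3 and 7 in 1. None belonged to an NK-gated cell, and without them the shares on days 3, 7 and 14 were 4.525%, 5.882% and 2.88%. Their removal cut the day 0 library from 249 to 137 filtered cells. That library still held no NK-gated cell, but the upper limit of its exact binomial interval rose from 1.471% to 2.657%.

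The label was checked against genes that the gate did not use. All 16 listed NK cell genes outside the gate were measured in the NK-gated cells, and together they reached 30751.9, 20324.3 and 17422.1 UMIs per 1000000 UMIs of the sum (CPM, not scaled to gene length) on days 3, 7 and 14, against 12640.5, 2601 and 3347 CPM in the T-gated cells without a UMI of the 4 NK genes, which are the T-gated cells of all levels below. In macrophage-gated cells (at least 2 UMIs of Csf1r and Cd68 together, none of the CD3 genes and fewer than 2 of the NK genes) the same genes, some of which, such as Fcer1g and Tyrobp, macrophages also express, reached 3468, 4071 and 4077 CPM. These sums rest largely on Ccl5 in NK-gated and T-gated cells, a gene that T cells share. Ccl5 alone gave 15276.8, 9025 and 5479 CPM in NK-gated and 10453.4, 1655 and 1804 CPM in T-gated cells. Gzma, a granzyme that the gate did not use, was seen after reduction to 1000 UMIs per cell in 90.2%, 67.8% and 48% of NK-gated cells. In macrophage-gated cells, which should lack it, the share was 0%, 0.515% and 0%. For detection at this depth, the exact 95% interval of a count of 0 reached 0.682% on day 3 and 2.4% on day 14. Before this reduction the Gzma shares were 96.1%, 80% and 56% in NK-gated cells and 1.3%, 2.78% and 0% in macrophage-gated cells, with median depths of 4718, 6128 and 4748 UMIs and of 13599, 11568.5 and 10732.5 UMIs. Genes of the T cell receptor chains were present in NK-gated cells at differing levels. Trac, the α chain constant region, stood at 48.65, 23.39 and 7.952 CPM against 627.6, 606.7 and 489.6 CPM in T-gated cells. Trbc1, a β chain constant region, stood at 561.4, 643.1 and 580.5 CPM in NK-gated and 955.4, 683.8 and 337.9 CPM in T-gated cells. Trbc2, the other β chain constant region, stood at 179.6, 198.8 and 373.7 CPM against 1372, 1182 and 982.1 CPM, and Trdc, the δ chain constant region, at 67.36, 87.05 and 79.52 CPM against 103, 435.1 and 767.3 CPM. The coreceptor genes Cd4, Cd8a and Cd8b1 had no UMI on days 3 and 14. The neutrophil list summed to 14.97, 20.79 and 15.9 CPM and the monocyte/macrophage list to 348, 939.4 and 302.2 CPM, the latter against 17792.7, 21848 and 36249 CPM in macrophage-gated cells. The dendritic cell list summed to 628.7, 491.1 and 493 CPM in NK-gated cells, 168.6, 288.5 and 1973 CPM in T-gated and 16752.2, 26046.2 and 22250.3 CPM in macrophage-gated cells. Its NK-gated level lay mostly in genes of MHC class II presentation, Cd74 at 318.1, 283.2 and 302.2 CPM and H2-Aa at 160.9, 102.6 and 95.42 CPM, while Xcr1 and Clec9a, which define a dendritic cell type, had no UMI. The part of RNA from other cells in these levels was not tested. ILC1 share Ncr1, Klrb1c and Nkg7 with NK cells, so the gate cannot separate them, and the cells are called NK-gated throughout.

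Between days, counts were summed over the NK-gated cells of a library, giving 267203, 769671 and 125760 UMIs on days 3, 7 and 14. A gene was considered when its mean over the 3 libraries reached 100 CPM, which 1576 genes did, and it was counted as different when it was at least 2-fold apart after adding 20 CPM. On this scale 27 genes (1.71%) were higher and 36 (2.28%) lower on day 7 than on day 3. Against day 7, 39 genes (2.47%) were higher and 8 (0.508%) lower on day 14. Between day 14 and day 3, 47 genes (2.98%) were higher and 42 (2.66%) lower. The median difference over all these genes was -0.07, 0.07 and 0.02 on the log2 scale, close to 0 in each comparison. Because the limit was set on the mean over the libraries, a gene could pass it only through the day on which it was high, and it then had to differ from a day on which it was low. Among genes counted below, this touches those under 100 CPM on the lower day of a comparison, namely Il7r, Ltb, Rora, Cd226, Slamf7, Sh2d1a, Klra3, Cx3cr1, Cma1, Ikzf2, Col1a1 and Col1a2, and the counts that hold them are given as a description. It also touches Eln, Tnfrsf9, Klri2, Tagap, Gpr183 and Krt83, which are named below outside the lists and lay under 100 CPM on a lower day.

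Genes of the cytotoxic granule stood highest on day 3 for most members that passed the limit on level. Summed over the 15 listed genes they reached 16182.5, 8606 and 10345.1 CPM on days 3, 7 and 14, a sum that rests largely on Gzma. Of the 8 that passed the limit on level, 3 were at least 2-fold lower on day 7 than on day 3 and none was higher (background 2.28% and 1.71%), with a median log2 difference of -0.62. Gzma, a granule tryptase, measured 9547 CPM on day 3, 4597 CPM on day 7 and 6337 CPM on day 14. Gzmb, the granzyme that activates caspases, measured 1774, 667.8 and 604.3 CPM, and Prf1, the pore-forming perforin, 1415, 543.1 and 731.6 CPM. The ratio of day 7 to day 3 was 0.4815 for Gzma (exact 95% interval 0.4575 to 0.5068), 0.3765 for Gzmb (0.3316 to 0.4274) and 0.3839 for Prf1 (0.3332 to 0.4424). Ctsw and Ctsc, cathepsins of cytotoxic granules, were the members among these 8 not highest on day 3. Ctsw measured 587.6, 578.2 and 874.7 CPM and Ctsc 142.2, 116.9 and 159 CPM, while Serpinb6b, a protease inhibitor, measured 561.4, 557.4 and 421.4 CPM, all within 2-fold in every comparison. Lamp1, a lysosomal membrane protein, lay under the limit on mean level and measured 56.14, 94.85 and 135.2 CPM, and Gzmc, also under it, had 3, 59 and 0 UMIs, so that neither was highest on day 3. On day 14, 2 of the 8 were at least 2-fold lower than on day 3 (background 2.66%), with a median log2 difference of -0.71, namely Gzmb and Serpinb9, which protects cytotoxic cells from their own granzyme B and measured 557.6, 345.6 and 222.6 CPM. None of these 8 granule genes passed 2-fold between days 7 and 14. The median of these genes was also lower on day 7 than on day 3 in T-gated cells (-0.66), and in macrophage-gated cells it was 0.03, while for day 14 against day 3 it was -1.25 and -0.06.

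The bases before the starts of the granule genes were searched for 2 short motifs, and those of Gzma, Gzmb and Prf1 are shown. In the 250 bases before the start, 8 of the 13 granule genes with an entry in the RefSeq promoter table (GRCm38.p6) held TGTGGT or its reverse complement ACCACA, the core letters of the site bound by RUNX factors, compared with 14.2% of the 27025 promoters in the table and 11.2% of the 3635 with an entry among genes tested against T cells. The T-box letters GGTGTGA or TCACACC, searched on both strands like the former, with which they may overlap by a few bases, stood in 3 of the 13 (3.3% of all promoters). The 8 genes with the RUNX letters were Gzma, Gzmb, Gzmc, Gzmm, Lamp1, Prf1, Rab27a and Srgn. Gzmc and Lamp1 among them were not highest on day 3, so the letters were not confined to genes with that order of days. Such a match is a description of the letters and shows no binding. The windows below hold 60 bases on the strand of the gene, with the match nearest to the start in capitals. They are those of the granule genes at least 2-fold lower on day 7 than on day 3 in the summed counts.
Gzma, chr13:113100999-113101058, minus strand, match beginning 50 bases before the start: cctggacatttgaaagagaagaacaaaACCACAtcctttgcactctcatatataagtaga
Gzmb, chr14:56262336-56262395, minus strand, match beginning 34 bases before the start: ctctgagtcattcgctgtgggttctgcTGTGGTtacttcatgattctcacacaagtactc
Prf1, chr10:61297679-61297738, plus strand, match beginning 130 bases before the start: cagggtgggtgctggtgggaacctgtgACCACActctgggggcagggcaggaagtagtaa

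Cell by cell, the spread of the granule genes was wide. On day 3 the median cell held 91.64 UMIs of Gzma per 10000 UMIs, with quartiles of 44.96 and 164.3. On day 7 the median was 38.77 (quartiles 4.538 and 86.97), and on day 14 it was 27.73 (quartiles 0 and 176.1). The day 14 cells fell apart into 11 without a UMI of Gzma and 14 with one, and their upper quartile was above that of day 3. Prf1 was seen in 56.9%, 36.5% and 40% of cells after reduction to 1000 UMIs, and in 0%, 0% and 0% of macrophage-gated cells (a count of 0 allows up to 0.557%, 0.309% and 1.97%). The unreduced shares were 92.2%, 78.3% and 56%, against 0.928%, 0.309% and 0%.

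**Figure D2:**
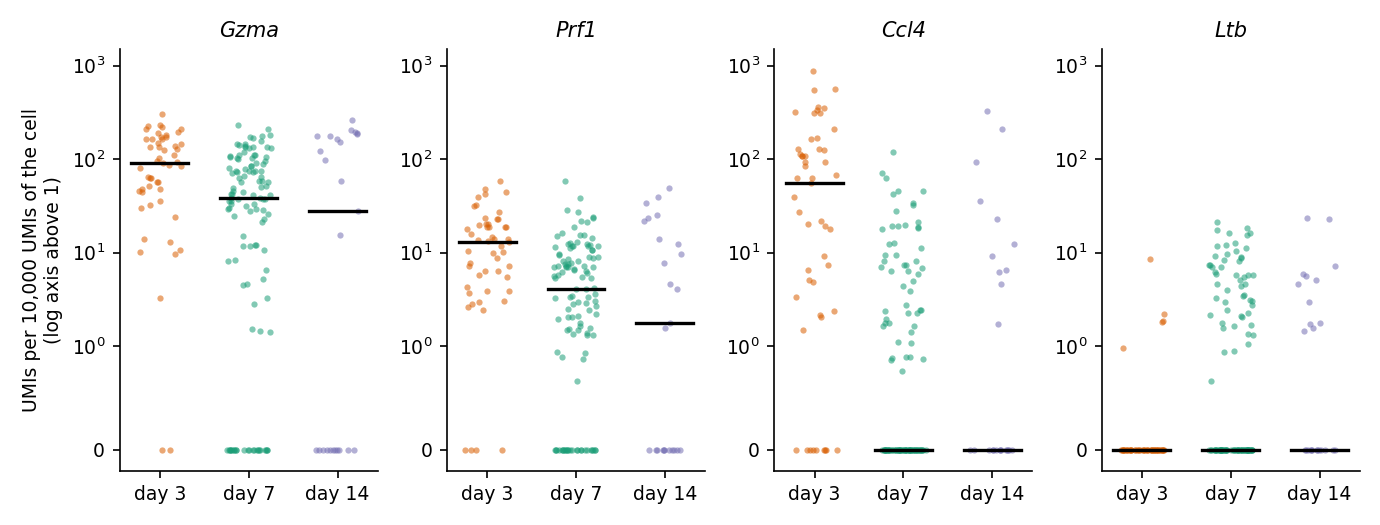
Gzma, Prf1, Ccl4 and Ltb in each NK-gated cell, as UMIs per 10000 UMIs of the cell on an axis that is logarithmic above 1, for 51, 115 and 25 cells of days 3, 7 and 14. Each point is a cell and each black line the median of the day, and the Gzma panel shows the 11 cells at 0 and the group of high cells on day 14.

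Ccl3, Ccl4, Ccl5 and Xcl1 stood highest on day 3. Of 7 cytokine and chemokine genes that passed the limit on level, 3 were at least 2-fold lower and 1 higher on day 7 than on day 3 (background 2.28% and 1.71%), and 4 were lower and 1 higher on day 14 than on day 3 (2.66% and 2.98%). Between days 7 and 14, Ccl4 alone of the 7 passed 2-fold, being higher on day 14 (2.47%). Ccl4 (MIP-1β, which attracts macrophages and lymphocytes) measured 10344.2 CPM on day 3, 553.5 CPM on day 7 and 2672 CPM on day 14. Its ratio of day 7 to day 3 was 0.05351 (0.0482 to 0.05928), an 18.69-fold lower level. Ccl3 (MIP-1α) measured 2085, 327.4 and 636.1 CPM, and Xcl1, which attracts cross-presenting dendritic cells, 2814, 1384 and 1392 CPM. Ccl5, a chemokine of cytotoxic lymphocytes, was lower on each later day, at 15276.8, 9025 and 5479 CPM, and its level on day 14 was 0.3586 times that on day 3 (0.3303 to 0.3889). Ifng, the gene of interferon-γ, stayed within 2-fold at 389.2, 261.2 and 349.9 CPM. A high share of the Ccl4 UMIs lay in few cells, as the top 10% of cells held 46%, 70.2% and 77.1% of them. On day 14 these were 2 cells, so that the day 14 level of Ccl4 rested on them. After reduction to 1000 UMIs, Ccl4 was seen in 72.5%, 22.6% and 40% of NK-gated cells, in 15.4%, 23% and 46.1% of macrophage-gated cells, which express Ccl4 themselves, and in 5.56%, 6.74% and 3.51% of T-gated cells. Before reduction these shares were 82.4%, 46.1% and 44%, 33.4%, 45.7% and 67.8%, and 25%, 18.7% and 12.3%. At the common depth the NK-gated share thus stood above the macrophage-gated share on day 3 alone among these days. The summed macrophage-gated level of Ccl4 was 324.5, 620.9 and 2485 CPM, and the part of macrophage RNA in the NK-gated values was not tested.

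Several genes of mature NK cells were lower on day 7 than on day 3. Of 9 measured at the limit on level, 6 were at least 2-fold lower on day 7 and none was higher (background 2.28% and 1.71%). Of the 6, Gzmb and Prf1 were already counted among the granule genes, and Cma1 passed the limit on level only through day 3. The list had a median log2 difference of -1.28. In T-gated cells the median of the same genes was -1.03, and in macrophage-gated cells it was -0.02. Zeb2, a transcription factor of terminal maturation, measured 407.9, 155.9 and 238.5 CPM, and Cma1, a chymase gene, measured 235.8, 85.75 and 71.56 CPM. Cx3cr1, the fractalkine receptor, measured 142.2 CPM on day 3, 19.49 CPM on day 7 and 159 CPM on day 14, and Ly6c2 measured 415.4, 114.3 and 302.2 CPM. Both were therefore at least 2-fold higher again on day 14 than on day 7, by ratios of 8.16 (3.971 to 17.13) and 2.643 (1.757 to 3.908), and no other of the 9 was (background 2.47%). Against day 3, 3 of the 9 were lower on day 14 (2.66%), namely Gzmb, Cma1 and Irf8. Irf8, an interferon regulatory factor active in NK cells, was lower on each later day (1400, 743.2 and 540.7 CPM) and was past 2-fold on day 14 against day 3 (ratio 0.3863). Klrg1, an inhibitory receptor of mature cells, and S1pr5, which guides exit into blood, lay under the limit on mean level and measured 168.4, 50.67 and 31.81 CPM and 127.2, 35.08 and 47.71 CPM. Itgam (CD11b), at 194.6, 109.1 and 103.4 CPM, and Klf2, at 520.2, 618.4 and 819 CPM, did not pass 2-fold.

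Some genes of immature NK cells showed the opposite order. Of 10 that passed the limit on level, 5 were at least 2-fold higher on day 7 than on day 3 (background 1.71%) and 1, Xcl1, was lower (2.28%), with a median log2 difference of 1.14 (0.15 in T-gated cells). The same counts, 5 higher and 1 lower, were found for day 14 against day 3 (background 2.98% and 2.66%), with a median of 0.94 (0.53 in T-gated cells). The 5 higher on day 7 were Ltb, Il7r, Ctla2a, Emb and Cd7. Ltb, which encodes lymphotoxin-β, measured 52.39, 343 and 437.3 CPM. Ltb and Il7r passed the limit only through the later days. Il7r, the receptor chain for interleukin 7, measured 14.97, 111.7 and 214.7 CPM. Ctla2a, a cathepsin inhibitor gene, measured 321.9, 1195 and 1026 CPM, Emb, which encodes the adhesion protein embigin, 172.2, 500.2 and 930.3 CPM, and Cd7 153.4, 423.6 and 357.8 CPM. The ratio of day 7 to day 3 was 6.547 for Ltb (3.833 to 12.14) and 7.464 for Il7r (2.812 to 28.01). Other members, such as Cd27 at 116, 115.6 and 111.3 CPM and Tcf7 at 131, 171.5 and 111.3 CPM, stayed within 2-fold, so the group did not move as a whole.

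The few measurable genes of ILC1 were higher on days 7 and 14 than on day 3. Only 3 of the 12 passed the limit on level, namely Il7r, Rora and Ltb, of which Il7r and Ltb are also on the list of immature NK cells. These 3 were at least 2-fold higher on day 7 and on day 14 than on day 3 (background 1.71% and 2.98%), with median log2 differences of 1.91 and 2.75. All 3 lay under 100 CPM on day 3 and passed the limit only through the later days, Il7r and Rora narrowly with means of 113.8 and 102.6 CPM, so that their difference from day 3 was in part fixed by it and the count is given as a description. Rora, a nuclear receptor of innate lymphoid cells, measured 14.97, 70.16 and 222.6 CPM and was the member that passed 2-fold between day 7 and day 14 (ratio 3.173, 1.935 to 5.099, background 2.47%), whereas the interval for Ltb included 1 (1.275, 0.9356 to 1.71). The other members were low. Cxcr6, a chemokine receptor that holds lymphocytes in tissue, had 0 UMIs on day 3 and measured 46.77 and 87.47 CPM on days 7 and 14. Itga1 (CD49a) measured 3.742, 54.57 and 55.66 CPM, Inpp4b, a phosphoinositide phosphatase, 18.71, 35.08 and 198.8 CPM, and Tmem176b 11.23, 61.07 and 214.7 CPM. Over the 12 genes the summed level was 146, 832.8 and 1765 CPM in NK-gated cells and 2332, 3413 and 5214 CPM in T-gated cells. The median of the 3 genes in T-gated cells differed by 0.23 between days 7 and 3 and by 0.76 between days 14 and 3 on the log2 scale, and in macrophage-gated cells by 0.26 and 0.41. After reduction to 1000 UMIs, Il7r was seen in 0%, 7.83% and 16% of NK-gated cells (the count of 0 in 51 cells allows up to 5.88%) and in 2.41%, 2.78% and 5.26% of macrophage-gated cells, and Cxcr6 in 0%, 2.61% and 4% of NK-gated and in none of the macrophage-gated cells. Before reduction the Il7r shares were 1.96%, 13.9% and 36% in NK-gated and 9.46%, 14.3% and 24.3% in macrophage-gated cells, and the Cxcr6 shares were 0%, 10.4% and 28% in NK-gated and 0%, 0.515% and 0% in macrophage-gated cells. In T-gated cells Il7r was seen in 30.6%, 45.1% and 63.2% after reduction and in 61.1%, 75.1% and 86% before it.

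**Figure D3:**
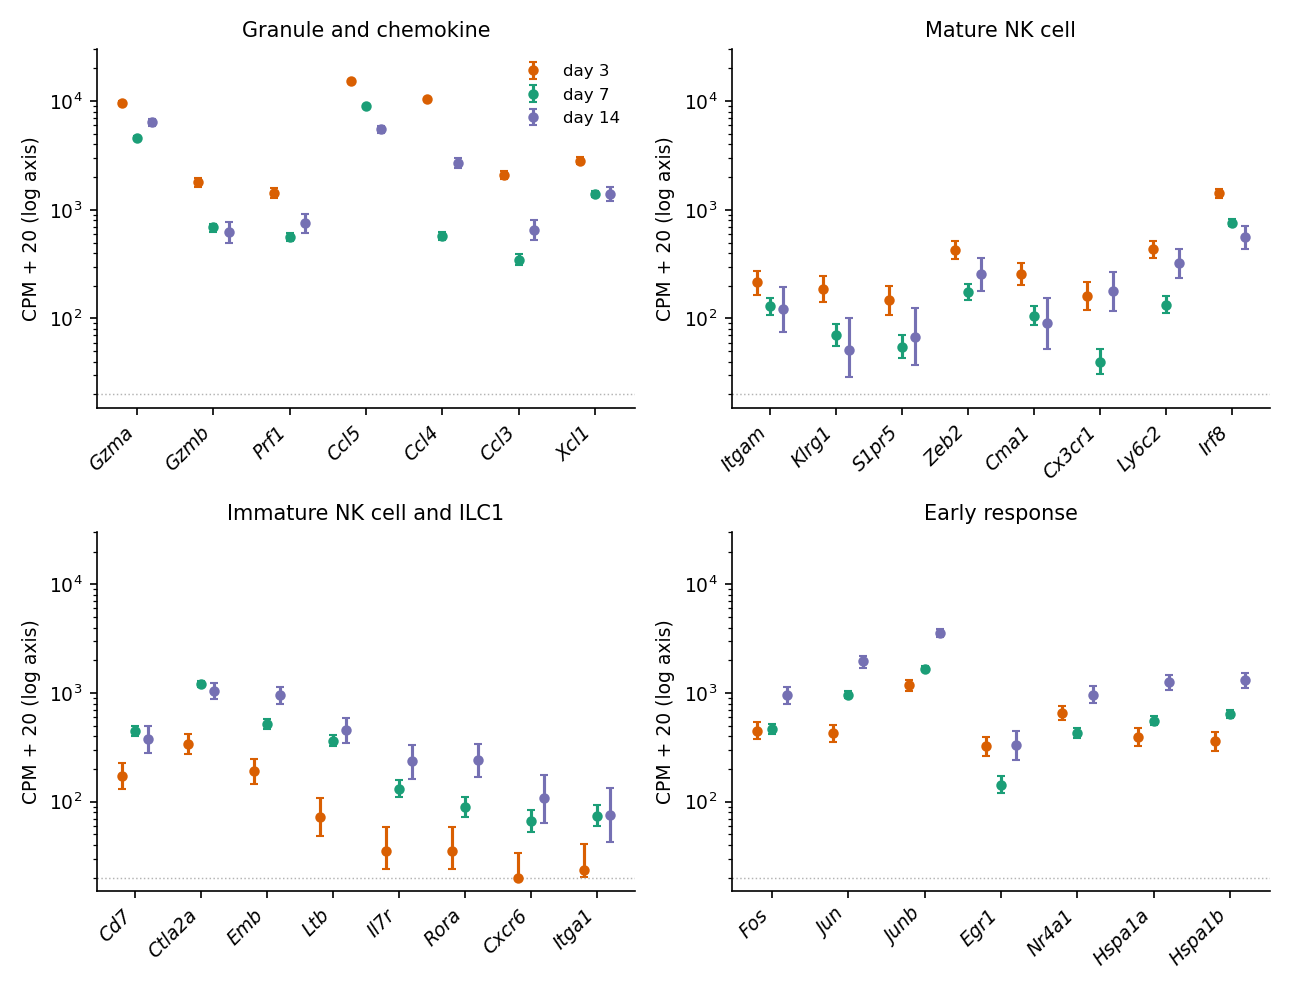
Levels of 4 gene groups in the summed NK-gated cells of days 3, 7 and 14, as CPM plus 20 on a log axis, with points for the level, error bars for the exact 95% Poisson interval and a dotted line at a level of 0. Of the genes plotted, those of the granule, chemokine and mature NK cell groups stood highest on day 3 (Gzmb at 1774 CPM), except that Cx3cr1 was similar on day 14, whereas those of immature NK cells and ILC1 stood lowest on day 3 (Il7r at 14.97 CPM). The early response genes plotted stood highest on day 14 (Junb at 3554 CPM), with Egr1 at a similar level on day 3.

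To describe the cells within the gate further, they were divided by a UMI of Eomes and by a UMI of any of 6 ILC1 markers (Cxcr6, Itga1, Il7r, Cd200r1, Tmem176a and Tmem176b). Eomes is a gate gene, so a cell without it had to pass by the other NK genes. On day 3, 28 of 51 cells had Eomes and no ILC1 marker, 5 had both, 3 had an ILC1 marker and no Eomes, and 15 had neither. On day 7 the counts were 52, 18, 23 and 22 of 115 cells, and on day 14 they were 6, 0, 11 and 8 of 25 cells. Cells with an ILC1 marker and no Eomes thus made up 5.88%, 20% and 44%. Both were seen together in 5 of the 8 cells with an ILC1 marker on day 3, in 18 of 41 on day 7 and in 0 of 11 on day 14, so that the markers did not exclude Eomes on days 3 and 7. Depth affects such a division. After reduction to 1000 UMIs, an ILC1 marker was seen in 1.96%, 16.5% and 36% of NK-gated cells (15.7%, 35.7% and 44% before it) and Eomes in 23.5%, 24.3% and 16% (64.7%, 60.9% and 24% before it). Macrophage-gated cells, which themselves express Tmem176a and Tmem176b, showed an ILC1 marker in 36.9%, 51.1% and 53.3% after reduction, and Eomes in 0%, 0.206% and 0%. T-gated cells showed an ILC1 marker in 47.2%, 66.3% and 78.9% after reduction and in 86.1%, 91.7% and 89.5% before it. These shares were above those of NK-gated cells on each day, so the markers are not particular to cells within the gate.

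**Figure D4:**
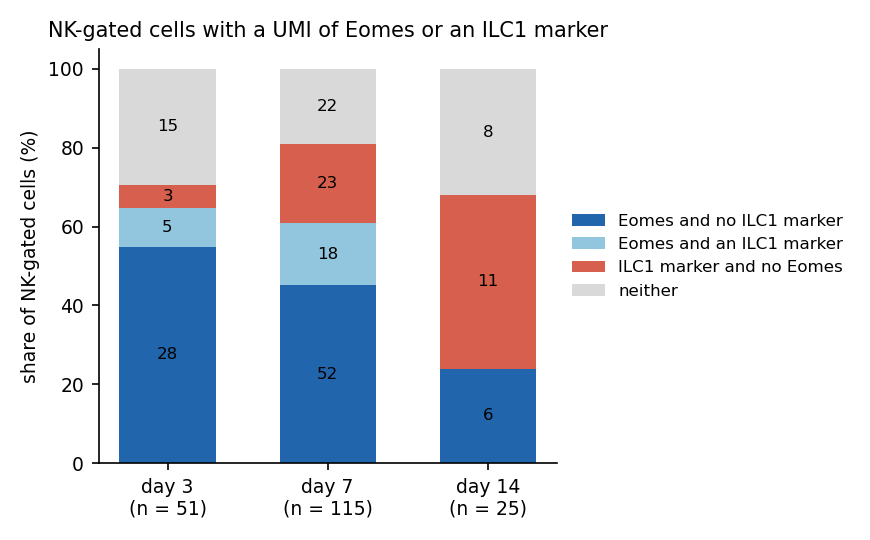
Share of NK-gated cells in percent, by detection of Eomes and of any of 6 ILC1 markers, for days 3, 7 and 14, with the number of cells in each part of a bar. Cells with an ILC1 marker and no Eomes numbered 3 of 51, 23 of 115 and 11 of 25.

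On days 7 and 14 the cells with an ILC1 marker and no Eomes had other levels of several genes that the division did not use. On day 7, Gzma stood at 1507 CPM in these 23 cells (exact 95% interval 1328 to 1705) and was seen in 7 of them, against 6127 CPM (5867 to 6395) and 48 of 52 among cells with Eomes and no ILC1 marker. Klra4 (Ly49D, an activating receptor) stood at 148.4 and 974.8 CPM, and Irf8 at 284.9 and 1022 CPM. Rora was at 243.3 CPM against 11.71 CPM, and Emb at 759.6 against 377.6 CPM. The granzyme gene Gzmc had 49 UMIs in 4 of the 23 cells and 8 UMIs in 7 of the 52. On day 14 a UMI of Gzma was found in 1 of the 11 cells with an ILC1 marker and no Eomes, in 5 of 6 with Eomes and no ILC1 marker, and in 8 of 8 with neither. Inpp4b was found in 9, 0 and 0 of these cells, and Emb in 10, 3 and 2. On day 3, where the class held 3 cells, all 3 had Gzma. Xcl1 did not follow the division in the same way on day 7, with 2279 CPM in cells with an ILC1 marker and no Eomes and 1429 CPM in cells with Eomes and no ILC1 marker. All these values come from cells of 1 library each and were not tested.

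Ly49 receptors, which sense MHC class I, were seen in most NK-gated cells. A UMI of any Ly49 gene was found in 84.3%, 82.6% and 60% of cells on days 3, 7 and 14, and in 66.7%, 67.8% and 56% after reduction to 1000 UMIs, where macrophage-gated cells gave 5.01%, 6.7% and 6.58% (30.4%, 42.2% and 26.3% before it). The median cell showed 2, 2 and 1 Ly49 genes before reduction. Of 5 members that passed the limit on level, 2 were at least 2-fold lower on day 7 than on day 3 (background 2.28%), and 1 was higher on day 14 than on day 7 (2.47%). Klra9 (Ly49I, an inhibitory receptor) measured 673.6, 184.5 and 405.5 CPM and accounted for 1 call in each of these comparisons. Klra3 (Ly49C) measured 262, 93.55 and 39.76 CPM and Klra8 (Ly49H, an activating receptor) 598.8, 565.2 and 278.3 CPM, so that these 2 were at least 2-fold lower on day 14 than on day 3 (2.66%). When at least 3 UMIs of the NK genes were required, Klra8 fell just under 2-fold in that comparison (-0.99 on the log2 scale). Klra3, counted in both comparisons with day 3, passed the limit only through that day. Klra4 measured 550.1, 697.7 and 405.5 CPM and Klra7 (Ly49G) 295.7, 315.7 and 174.9 CPM. Genes of this family are near-identical and reads can be divided among them, so single members are uncertain.

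Most other receptors stayed within 2-fold between days. Among 11 activating receptors and adaptors that passed the limit on level, none was higher and 1 lower on day 7 than on day 3 (background 1.71% and 2.28%), 2 were higher and 1 lower on day 14 than on day 7 (2.47% and 0.508%), and 1 was higher and none lower on day 14 than on day 3 (2.98% and 2.66%). Fcer1g and Tyrobp, adaptors that pass signals from activating receptors, measured 2006, 1697 and 2147 CPM and 1677, 1662 and 1193 CPM. Klrk1 (NKG2D) measured 857, 956.3 and 882.6 CPM. The calls concerned Slamf7 (205.8, 53.27 and 151.1 CPM), the adhesion receptor Cd226 (52.39, 75.36 and 182.9 CPM) and the adaptor Sh2d1a (104.8, 206.6 and 47.71 CPM). Cd226, at a mean of 103.5 CPM, passed the limit only through day 14 and was the call of day 14 against day 3. Klrc1 (NKG2A) and its partner Klrd1 stayed within 2-fold at 572.6, 379.4 and 644.1 CPM and at 1153, 926.4 and 771.3 CPM. The cytokine receptor list had 8 members at this level, and Il7r was its single call on day 7 and on day 14 against day 3 (background 1.71% and 2.98%). Il2rb, the chain shared by the receptors of interleukins 2 and 15, measured 1003, 958.9 and 787.2 CPM.

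Trafficking genes showed no common direction. Of 14 at this level, 1 was at least 2-fold higher and 3 lower on day 7 than on day 3 (background 1.71% and 2.28%), 1 was higher and 1 lower on day 14 than on day 7 (2.47% and 0.508%), and none was higher and 2 lower on day 14 than on day 3 (2.98% and 2.66%). Ccr2, the receptor for monocyte-attracting chemokines, measured 164.7, 459.9 and 127.2 CPM and was higher on day 7 than on day 3 (ratio 2.793, 2.038 to 3.913) and lower on day 14 than on day 7 (0.2766, 0.1564 to 0.4555). Itga4, an integrin chain that binds Vcam1, measured 853.3, 396.3 and 310.1 CPM. Itgb2, the β2 integrin chain, measured 718.6, 281.9 and 373.7 CPM.

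Of 14 transcription factors that passed the limit on level, Eomes is a gate gene and is left out of the counts that follow. On day 7, none was at least 2-fold higher and 1, Zeb2, lower on day 7 than on day 3 (background 1.71% and 2.28%). On day 14, 1, Ikzf2, was higher and 1, Irf8, lower than on day 3 (2.98% and 2.66%), and none was past 2-fold between days 7 and 14 (2.47% and 0.508%). Tbx21 (T-bet), which drives the NK cell program together with Eomes, measured 175.9, 137.7 and 143.1 CPM, and Id2, which all innate lymphoid cells need, 1314, 993.9 and 667.9 CPM. Runx3 measured 288.2, 408 and 373.7 CPM, and Ikzf2 (Helios), a zinc finger factor, 63.62, 142.9 and 151.1 CPM. Eomes, a gate gene whose level helped to choose the cells, stood at 310.6, 270.2 and 119.3 CPM.

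Several early response genes stood higher on day 14 than on day 7. Of 21 at this level, 9 were at least 2-fold higher on day 14 than on day 7 and none was lower (background 2.47% and 0.508%), with a median log2 difference of 0.84. On day 7, 1 was higher and 2 lower than on day 3 (1.71% and 2.28%), and on day 14, 5 were higher and none lower than on day 3 (2.98% and 2.66%). Junb and Jun, subunits of the transcription factor AP-1, measured 1156, 1651 and 3554 CPM and 404.2, 945.9 and 1932 CPM, and the heat shock gene Hspa1a measured 374.2, 535.3 and 1240 CPM. The same list moved in the other cells of these libraries, by a median of 0.64 in T-gated and 0.65 in macrophage-gated cells. Their part in the NK-gated result was not tested.

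Among the remaining genes, those whose interval lay farthest from a ratio of 1 were named. Tnfrsf9 (4-1BB), a costimulatory receptor of activated lymphocytes, measured 497.7, 158.5 and 15.9 CPM, a ratio of 0.03195 for day 14 against day 3 (0.00383 to 0.1177). Plek, which encodes pleckstrin, measured 557.6, 184.5 and 135.2 CPM, Tagap, a GTPase-activating protein of activated T cells that passed the limit on level only through day 3, 299.4, 46.77 and 79.52 CPM, and the lectin-like receptor gene Klri2 265.7, 235.2 and 47.71 CPM. In the other direction, the oxysterol receptor gene Gpr183 measured 7.485, 36.38 and 278.3 CPM, and Krt83, a keratin gene, had 0 UMIs on day 3 and measured 16.89 and 310.1 CPM on days 7 and 14. Both, at means of 107.4 and 109 CPM, passed the limit on level only through day 14, so that their place among these genes followed in part from it. In T-gated cells Gpr183 measured 182.7, 219.1 and 435.2 CPM and Krt83 9.367, 98.25 and 146 CPM. Col1a2 and Eln, genes of the vessel wall matrix, measured 71.11, 268.9 and 341.9 CPM and 26.2, 293.6 and 182.9 CPM. Both passed the limit on level only through the later days, so that their difference from day 3 followed in part from it. The vessel wall list, which does not hold Eln, had 3 genes at this level, Col1a1, Col1a2 and Col3a1. All 3 were at least 2-fold higher on day 7 than on day 3 in NK-gated cells (background 1.71%, median log2 difference 1.46). The median was 3.39 in T-gated and -1.25 in macrophage-gated cells. The summed vessel wall list was 381.7, 1063 and 1463 CPM in NK-gated, 496.4, 4835 and 1088 CPM in T-gated and 8280, 3399 and 5488 CPM in macrophage-gated cells, and the part of RNA from other cells in it was not tested. By UMI share, not scaled to gene length, the leading genes of the NK-gated cells over the 3 libraries were Ccl5, Gm42418, Tpt1, Gzma, Tmsb10, Ccl4, Fau, AW112010, H2-K1 and H2-D1, after leaving out mitochondrial genes, ribosomal protein genes by their Rpl or Rps symbols and 5 housekeeping genes. Fau, which also encodes a ribosomal protein, has no such symbol and remained. H2-K1 and H2-D1 encode classical MHC class I chains and stayed within 2-fold, at 3106, 3604 and 2759 CPM and at 2856, 3372 and 2998 CPM.

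How many NK-gated cells held cell cycle transcripts depended on the number of UMIs required and on depth. With at least 1 UMI of 11 cell cycle genes and no reduction, 13.7%, 29.6% and 8% of NK-gated cells qualified on days 3, 7 and 14, beside 32.5%, 29.3% and 32.9% of macrophage-gated and 22.2%, 30.1% and 15.8% of T-gated cells, so that the day 7 share was close to both. With at least 2 UMIs of these genes required after reduction to 1000 UMIs, 0 of 51, 0 of 115 and 0 of 25 NK-gated cells qualified. At the same depth 5.57%, 2.89% and 5.92% of macrophage-gated and 2.78%, 3.11% and 5.26% of T-gated cells qualified. The exact 95% binomial intervals of the NK-gated shares were 0 to 6.98%, 0 to 3.16% and 0 to 13.7%. They overlapped those of macrophage-gated (3.79 to 7.85%, 1.93 to 4.15% and 2.74 to 10.9%) and of T-gated cells (0.0703 to 14.5%, 1.15 to 6.64% and 1.1 to 14.6%). Overlap of separate intervals is no test of a difference, and the NK-gated share lay below both others in each library. The difference in these shares was not tested. The summed levels of single genes also differed. Mki67, a marker of cycling cells, measured 3.742, 12.99 and 15.9 CPM in NK-gated and 23.42, 92.01 and 111.7 CPM in T-gated cells, without overlap, and Top2a, a topoisomerase of dividing cells, 14.97, 18.19 and 7.952 CPM against 23.42, 148.2 and 140.3 CPM. With at least 1 UMI at this depth, 8 of 115 NK-gated cells qualified on day 7 (6.96%), beside 6.39% of macrophage-gated and 7.25% of T-gated cells. Before reduction the shares with 2 UMIs were 3.92%, 6.09% and 4% of NK-gated, 16%, 13.3% and 14.5% of macrophage-gated and 11.1%, 12.4% and 5.26% of T-gated cells. The limit on level was passed by 2 of 18 type I interferon-stimulated genes, 5 of 15 interferon-γ-induced genes, 9 of 14 genes of glycolysis and mTOR signalling and 9 of 11 MHC class I genes, and no gene that passed it was past 2-fold in any comparison. The other members of these lists were too low to be considered.

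To place the NK-gated cells beside the other cytotoxic lymphocytes, they were compared with CD8 T-gated cells (at least 2 CD3 UMIs, a UMI of Cd8a or Cd8b1, none of Cd4 and none of the 4 NK genes) and with all T-gated cells without NK genes, in the same 3 libraries. These held 14, 18 and 9 CD8 T-gated cells and 36, 193 and 57 T-gated cells. The sums of a library formed a pair, and edgeR's quasi-likelihood test with the library as a block gave Benjamini-Hochberg adjusted p-values. The libraries stood for different days, so change between days enters the spread of the test. That spread was estimated with the help of all genes, so a small p-value does not show that a difference was constant over the 3 time points. Against CD8 T-gated cells 1738 genes were tested, of which 107 (6.16%) were higher and 117 (6.73%) lower in NK-gated cells. Against all T-gated cells 4559 genes were tested, of which 212 (4.65%) were higher and 214 (4.69%) lower. These last counts were far lower without the day 7 library, as given with the other dependences on processing. Genes of both gates are included in the counts of both comparisons and are not findings. The T gates also excluded cells with NK receptors, so levels of NK and T cell receptor genes follow in part from the gates and are given below as levels, without a test.

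Among those receptor genes, Klra4, Klra7, Klra8, Klra9, Klrb1a and Klrb1b, all of the C-type lectin family, had no UMI in the CD8 T-gated cells. Against a floor of 3 UMIs over the 41 cells, Klra4 was at least 50-fold higher and Klra8 at least 42.9-fold higher in NK-gated cells. Without the exclusion of NK genes from the T gate, which was tried only once the data had been seen, T-gated cells of the 3 libraries together held 3.138 CPM of Klra4 and 71.81 CPM of Klra7, against 632.3 and 295.9 CPM in NK-gated cells. Among T cell genes, Tcrg-C1 and Cd6 had no UMI in NK-gated cells and were at least 71.8-fold and 43.1-fold lower than in all T-gated cells. Themis, a signalling protein of T cell selection, had 1 UMI in the NK-gated cells of the 3 libraries together, on day 7, at 1.299 CPM, against 82.65 CPM in T-gated cells of that day. Trac measured 617, 579.3 and 696.6 CPM in CD8 T-gated cells, far above its level in NK-gated cells, whereas Trbc1 overlapped, at 1526, 708.1 and 154.8 CPM.

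Gzma and Prf1 were higher in NK-gated than in CD8 T-gated cells, while most other granule genes did not pass the test. Of 9 tested, 4 were higher and none was lower in NK-gated than in CD8 T-gated cells (background 6.16% and 6.73%), and 7 of 12 were higher than in all T-gated cells (4.65%). Gzma measured 9547, 4597 and 6337 CPM in NK-gated cells and 1656, 718.8 and 483.7 CPM in CD8 T-gated cells, without overlap. The difference was 2.80 ± 0.15 on the log2 scale (standard error, higher in 3 of 3 libraries, edgeR adjusted p = 2.02e-14). Prf1 was higher by 2.36 ± 0.28 (edgeR adjusted p = 2.78e-07), at 249, 75.1 and 193.5 CPM in CD8 T-gated cells. Gzmb, at 768.5, 557.9 and 348.3 CPM in CD8 T-gated cells, did not pass the test at a difference of 0.68 ± 0.24 (edgeR adjusted p = 0.0568), while it was higher than in all T-gated cells (2.70 ± 0.21, edgeR adjusted p = 3.85e-05). The calls of Gzma and Prf1 held under every alternative. That of Serpinb6b was lost with NK genes allowed in the T gate (0.99), and that of Serpinb9 with DESeq2 (1.35), with no block (1.33) and without the day 3 library (1.10). Gzmb passed in 5 alternatives, at 0.68 to 1.01, among them without the day 7 library (1.00).

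Chemokines differed from CD8 T-gated cells in both directions, but these calls rested on the T gate. Ccl3, Ccl4 and Xcl1 were higher in NK-gated than in CD8 T-gated cells by 5.24 ± 0.46, 3.40 ± 0.46 and 4.12 ± 0.43 on the log2 scale (edgeR adjusted p = 4.62e-10, 2.37e-06 and 1.61e-08). The difference of Ccl4 was not constant over the days. On days 3, 7 and 14 it measured 10344.2, 553.5 and 2672 CPM in NK-gated and 184, 321.8 and 232.2 CPM in CD8 T-gated cells, closest on day 7. The calls of Ccl4 and Xcl1 were lost with DESeq2 at differences of similar size (3.31 and 4.49, adjusted p = 0.131 and 0.174). All 3 were lost when CD8 T cells with NK genes were allowed (2.87, 2.53 and 2.06), as were those of Ccl5 (-0.26) and Ltb (-0.75) that follow. Xcl1 stood at 527.1 CPM in all T-gated cells with NK genes allowed and at 41.19 CPM without them. Ccl5 was lower, by a small amount in all 3 libraries. It measured 21215.3, 9934 and 8901 CPM in CD8 T-gated cells and 15276.8, 9025 and 5479 CPM in NK-gated cells, a difference of -0.52 ± 0.08 (edgeR adjusted p = 4.21e-05). Against all T-gated cells, in contrast, Ccl5 was higher in NK-gated cells (1.46 ± 0.31, edgeR adjusted p = 0.0152), a call lost without the day 7 library (0.98). In that comparison 5 of 9 cytokine and chemokine genes tested were higher and 2 lower (background 4.65% and 4.69%). Among the higher were Ccl3 (4.37 ± 0.44) and Ccl4 (4.99 ± 0.49, edgeR adjusted p = 0.000177 and 0.000173). Ltb was lower than in either (-1.14 ± 0.29 and -1.73 ± 0.33, edgeR adjusted p = 0.00685 and 0.00813). Its call against CD8 T-gated cells was lost without the day 3 library (-0.81), without the day 7 library (-1.14) and with DESeq2 (-1.22, adjusted p = 0.113). Against all T-gated cells, Ltb lost its call without the day 7 library (-1.94). With no block for the library, Ccl5 and Ltb lost their calls against CD8 T-gated (-0.49 and -0.94) and against all T-gated cells (1.04 and -1.55). Ifng did not pass the test against CD8 T-gated cells (0.19 ± 0.35, edgeR adjusted p = 0.831), which measured 671.1, 182.4 and 38.7 CPM.

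The signalling adaptors Fcer1g and Tyrobp and the transcription factor Irf8 stood far higher in NK-gated than in CD8 T-gated cells. Fcer1g measured 32.47, 53.64 and 58.05 CPM in CD8 T-gated cells and was higher in NK-gated cells by 5.26 ± 0.30, and Tyrobp was higher by 5.62 ± 0.34 (edgeR adjusted p = 2.94e-14 and 1.34e-13). Irf8 measured 10.82, 10.73 and 0 CPM in CD8 T-gated cells and was higher by 6.67 ± 0.48 (edgeR adjusted p = 7.66e-12). Hhex, a homeobox gene, had 115 UMIs in NK-gated and none in CD8 T-gated cells. Bhlhe40, a basic helix-loop-helix factor, was higher by 1.55 ± 0.31 (edgeR adjusted p = 0.000636, 0.0531 with DESeq2), whereas Tbx21 and Zeb2 did not pass the test (0.16 ± 0.34 and 0.05 ± 0.29, edgeR adjusted p = 0.855 and 0.966). Against all T-gated cells Tbx21 was higher by 1.50 ± 0.31 and Zeb2 by 1.11 ± 0.21 (edgeR adjusted p = 0.0135 and 0.00752). Neither passed with DESeq2 (adjusted p = 0.107 and 0.0586) or without the day 7 library (1.05 and 1.38). Tbx21 also lost its call with NK genes allowed in the T gate (0.96).

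Of 9 cytokine receptor and signalling genes tested, 6 were higher and 1 lower in NK-gated than in CD8 T-gated cells (background 6.16% and 6.73%). Against all T-gated cells, 6 of 18 were higher and 4 lower (4.65% and 4.69%). Il2rb was higher in NK-gated than in CD8 T-gated cells by 1.62 ± 0.28 and Il18rap, a chain of the interleukin 18 receptor, by 1.17 ± 0.34 (edgeR adjusted p = 9.31e-05 and 0.0174), while Il7r was lower by 2.01 on the log2 scale (standard error 0.30, edgeR adjusted p = 9.86e-06). The call of Il18rap was lost without the day 3 library (0.67), without the day 7 library (1.22), with no block for the library (1.16) and with DESeq2 (adjusted p = 0.537), that of Il7r with no block (-2.03), and that of Il2rb held under every alternative. The 4 ILC1 genes tested, Cxcr6, Il7r, Rora and Ltb, were called lower in NK-gated than in CD8 T-gated cells (background 6.73%), and 7 of 10 lower than in all T-gated cells (4.69%). Of the 7, these 4 lost their calls against all T-gated cells without the day 7 library (-3.89, -3.63, -1.85 and -1.94). Against CD8 T-gated cells, DESeq2 lost the calls of Rora (-1.64, adjusted p = 0.34) and Ltb. Rora measured 222.6 CPM in NK-gated and 174.1 CPM in CD8 T-gated cells on day 14, and its call was lost without the day 3 library (-0.58), without the day 7 library (-1.68) and with no block (-1.43). With NK genes allowed in the CD8 T gate none of the 4 kept its call, at -2.07 for Cxcr6, -1.18 for Il7r, -0.43 for Rora and -0.75 for Ltb. Cxcr6 measured 238.1, 193.1 and 290.2 CPM in CD8 T-gated cells and 0, 46.77 and 87.47 CPM in NK-gated cells (-2.72 ± 0.49, edgeR adjusted p = 0.000152). Of the early response genes, 9 of 21 were higher and 1, Cd69, lower than in CD8 T-gated cells (background 6.16% and 6.73%). With DESeq2, Jun (adjusted p = 0.000418) and Nr4a1 (0.00219) kept their calls and the other 8 lost them, with adjusted p from 0.112 to 0.749. The differences of these 8 stayed of similar size with DESeq2, at 1.03 to 1.72, and -1.04 for Cd69. The same 8 lost their calls with NK genes allowed in the T gate, and Egr1, Ier5, Dusp1, Dusp5 and Cd69 among them with no block. Without the day 3 library, Egr1 (1.29), Ier5 (1.04), Nr4a2 (1.06), Nr4a3 (1.37) and Dusp1 (0.94) lost their calls. Without the day 7 library, Egr1 (1.09), Dusp1 (1.09), Dusp5 (1.17) and Cd69 (-0.75) did. Without the day 14 library, Egr1 (0.67), Ier5 (0.55), Dusp2 (0.86) and Dusp5 (0.54) did. Nr4a1, an orphan nuclear receptor induced by antigen receptor signals, was higher by 1.79 ± 0.30 (edgeR adjusted p = 5.37e-05), and Junb did not pass the test (0.32 ± 0.20, edgeR adjusted p = 0.385), though it did without the day 3 library (0.62). Ifi27l2a, an interferon-stimulated gene, measured 7, 12 and 0 UMIs in NK-gated and 53, 53 and 97 UMIs in the far fewer CD8 T-gated cells (-5.54 ± 0.39, edgeR adjusted p = 4.67e-12).

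Proliferation genes were mostly too low to be tested, and several of those tested were lower in NK-gated than in all T-gated cells. Of 9 tested, 4 were lower and 1 higher than in all T-gated cells (background 4.69% and 4.65%), with a median log2 difference of -0.93. The tubulin gene Tubb5 was lower by 1.27 on the log2 scale (standard error 0.24, edgeR adjusted p = 0.00911) and the histone gene Hist1h2ae by 2.16 (standard error 0.30, edgeR adjusted p = 0.00124), both in 3 of 3 libraries. Hist1h2ap (-1.67) and Cenpa (-0.93), a centromeric histone, were the others, and the histone variant gene H2afz was higher (0.73). DESeq2 kept the calls of Tubb5 and Hist1h2ae and lost the other 3, and without the day 7 library all 5 were lost (-1.02 for Tubb5, -2.10 for Hist1h2ae, -0.95 for Hist1h2ap, -0.92 for Cenpa and 0.86 for H2afz). With no block, Hist1h2ae (-2.69) and Hist1h2ap (-1.85) lost theirs, and with NK genes allowed in the T gate Cenpa (-0.77) and H2afz (0.57) did. Cenpa was also lost without the day 14 library (-0.81) and H2afz without the day 3 library (0.53). Against CD8 T-gated cells, 1 of 5 was lower and 1 higher (background 6.73% and 6.16%), namely Tubb5 (-1.08) and H2afz (0.71), and both were lost with DESeq2 and with no block. Tubb5 was also lost without the day 14 library (-0.62), and H2afz without the day 3 (0.65) or the day 7 library (0.65) and with NK genes allowed (0.21). Of the dendritic cell list, 2 of 3 tested genes were higher than in CD8 T-gated cells, Cd74 by 1.85 ± 0.38 and H2-Aa by 1.76 ± 0.58 (edgeR adjusted p = 0.00075 and 0.0397), and none than in all T-gated cells (0.53 and 0.10). The call of Cd74 was lost once doublets were removed (1.00), and that of H2-Aa with DESeq2 (adjusted p = 0.48), with no block (1.74), without the day 3 library (1.13) and without the day 14 library (1.42), while it was too low to be tested once doublets were removed.

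**Figure D5:**
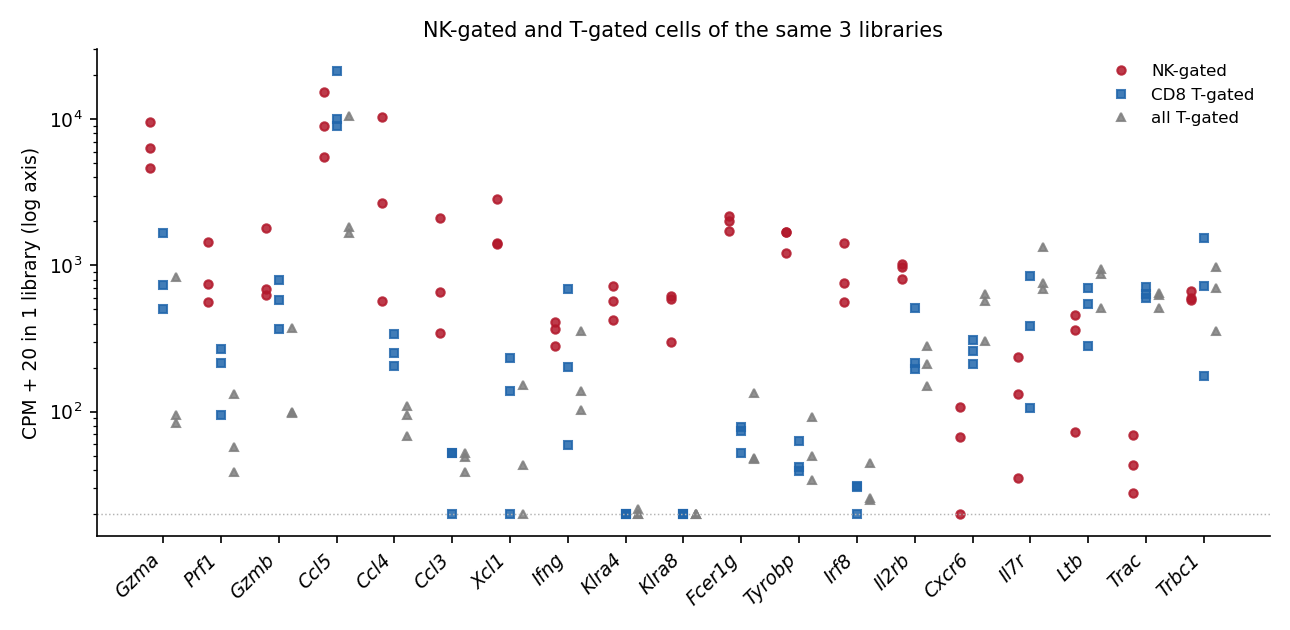
Levels of 19 genes in NK-gated, CD8 T-gated and all T-gated cells, as CPM plus 20 on a log axis, with 1 point for each of the libraries of days 3, 7 and 14 and a dotted line at a level of 0. Gzma, Fcer1g, Tyrobp and Irf8 stood higher in NK-gated than in CD8 T-gated cells in all 3 libraries, Cxcr6 and Trac lower, and Ccl5 overlapped between them.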

How the data were processed

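The deposited matrices held raw UMI counts per gene and barcode for 31053 genes, and the authors' barcodes were used as called. Cell Ranger 3.0.2 stands in the file headers, while the methods give a different version. The mouse genome build is not given in usable form in the sources used here, so coordinates are printed for RefSeq promoters only. T-gated, CD8 T-gated and macrophage-gated cells (Csf1r and Cd68 at least 2 UMIs, no CD3, NK genes under 2) passed the same cell filter. Scrublet (scanpy 1.11.5) marked 8 barcodes at its own threshold, too few to be credible, so removal at 0.8% per 1000 barcodes was an alternative, which removed 5 NK-gated cells. Between days, CPM of summed counts with exact 95% Poisson and ratio intervals were used, without a test. NK-gated and T-gated sums were tested with edgeR 4.0.16 (TMM, filterByExpr, quasi-likelihood, threshold 0.05), and DESeq2 1.42.0 was an alternative. The ratio intervals and the edgeR test were tried on simulated data, whereas DESeq2 was not.

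Members and gene lists were chosen with earlier results of these data known. Genes named were list members of highest level or largest ratio, the 6 per direction with the ratio interval farthest from 1, the 10 per direction with the largest fold against T cells, gate genes and the 10 genes of highest CPM. Genes named beyond this rule were chosen after their values were seen. The 2 libraries of a comparison were never replicates of a day. Pairing of NK-gated with T-gated sums came from the shared library. Some genes are not reported here.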

Additional observations from a re-analysis of the deposited data

How the results depend on the processing

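With 1 library per day, no difference between days has a replicate check, and day 14 rests on 25 cells. Gates set 1 UMI higher or lower, a wider cell filter, doublet removal and removal of shared barcodes, the last chosen after seeing the data, kept every share and every ratio to T cells within its interval. Reduction to 1000 UMIs before gating moved the shares to 2.843%, 2.577% and 1.591% and the NK-gated cells per T-gated cell on day 7 to 0.3006, so that day 3 stood above day 7 in share and day 14 (0.3043) above day 7 in the ratio to T cells. Adding 5 CPM in place of 20 moved the ILC1 median to 2.55 (day 7 against day 3) and 3.46 (day 14 against day 3) and the count lower on day 14 than day 7 to 15. Counts higher and lower at a mean of 300 CPM were 6 and 12 (day 7 against day 3), 10 and 1 (day 14 against day 7) and 14 and 15 (day 14 against day 3), and with any gene that had a UMI 102 and 113, 235 and 215, and 382 and 399. The day 7 share of cells with cell cycle genes moved from 0 to 6.09% without reduction to 1000 UMIs, and to 6.96% at that depth with 1 UMI in place of 2.

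Against CD8 T-gated cells, counts higher and lower were 48 and 53 with DESeq2, 71 and 39 with no replicate block, and 161 higher with no filter. With no replicate block, 14 named genes lost their calls against CD8 T-gated cells, among them Serpinb9 (1.33), Il7r (-2.03), Rora (-1.43) and Il18rap (1.16). Leaving out 1 library gave 80 to 119 higher and 76 to 132 lower, the lowest lower count without day 7. Against all T-gated cells they were 118 and 127 with DESeq2 and 341 and 592 with no filter, and leaving out 1 library gave 45 to 300 higher and 29 to 341 lower (45 and 29 without day 7, 341 lower without day 14). Without day 7 the calls of Cd6 (-7.35), Ltb4r1 (-7.49), Ramp3 (-7.45), Blk (-7.49), Sit1 (-7.02), Tcrg-C2 (-7.38), Serpinb9b (7.15), Xcl1 (4.72), Ccl5 (0.98), Ltb (-1.94), Cxcr6 (-3.89), Il7r (-3.63), Rora (-1.85), Tubb5 (-1.02), Hist1h2ae (-2.10), Hist1h2ap (-0.95), Cenpa (-0.92) and H2afz (0.86) against all T-gated cells were lost. With NK genes allowed in the T gate, tried after seeing the data, counts were 92 and 100 against CD8 T-gated and 219 and 230 against all T-gated cells. That gate lost the calls of 18 named genes against CD8 T-gated cells, chemokines and ILC1 genes among them. Of genes that had not passed against CD8 T-gated cells, Ifng turned to -0.03 (no replicate block), -0.04 (NK genes allowed) and, leaving out 1 library, ranged from -0.36 (without day 14) to 1.07, Tbx21 from -0.03 (without day 14) to 0.49, Junb from -0.17 (without day 14) to 0.62 and Zeb2 from -0.26 (without day 3) to 0.27. Zeb2 also turned to -0.00 (RLE factors), -0.02 (DESeq2) and -0.01 (3 NK UMIs).

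Between days, 9 values of single genes fell under 2-fold, all between 0.85 and 0.99 in size. The mean of each cell's CPM did so for Gpr183 (0.85) and Gzma (-0.90) on day 7 against day 3, Cd226 (0.85) and Junb (0.92) on day 14 against day 7, and Ikzf2 (0.97) on day 14 against day 3. No called difference changed sign, and the cause of these changes was not tested.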
